A study of Mus musculus with 8 samples.

Results

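The IFIT family is read here as the genes Ifit1, Ifit2, Ifit3 and Ifit3b in endothelial cells (ECs) of mouse breast tumours. The rule takes the genes by name and uses no measured value, but they were chosen with earlier results of these data known. All 4 genes were present in each of the 8 expression matrices, which together list 20408 genes, 16312 of them in every matrix. Tumours were either spontaneous, arising in female MMTV-PyMT mice in which the mouse mammary tumour virus promoter drives the polyoma middle T antigen in mammary epithelium, or implanted, grown from cultured MMTV-PyMT tumour cells placed with Matrigel in the mammary fat pad of female mice. Each model received PBS or the STING agonist cGAMP (a cyclic dinucleotide) by intratumoural (i.t.) injection, and ECs were collected 3 h later, which gave 4 groups of 2 libraries, named by model and injection, such as spontaneous PBS and implanted cGAMP. The spontaneous-tumour mice were 9 weeks old when treatment began and the hosts of implanted tumours were 8 to 9 weeks old at implantation. The labels give the strain as c57bl/6 while the study's methods name FVB hosts, and which held for these libraries could not be settled. The implanted arm had also been through culture, Matrigel and grafting, so the mode of tumour growth cannot be told apart from those steps. ECs were sorted as live CD45-negative CD31-positive cells, and only cells with a Pecam1 (CD31) transcript were kept. The study instead removed whole Pecam1-negative clusters and reported fewer final cells in every library. The cells kept here are therefore a larger set and not the same one. The filter on a Pecam1 transcript left 7159 of 8204 deposited cells, between 601 and 1529 per library.

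Interferon-induced proteins with tetratricopeptide repeats (IFITs) are among the genes that type I interferon turns on most strongly in many cell types. In the textbook pathway STING activates TBK1 and IRF3, interferon beta is made, its receptor signals through JAK1 and TYK2 to the transcription factor complex ISGF3, which binds interferon-stimulated response elements near IFIT start sites. IRF3 can also act on some IFIT promoters directly. Ifit1 binds RNA whose cap lacks ribose methylation and keeps it from being translated. Ifit2 binds RNA and has been linked to apoptosis and to antiviral defence in the brain. Human IFIT3 binds IFIT1, which is not taken here to hold for mouse Ifit3. Ifit3b is a close relative of Ifit3 with a less settled role.

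The 4 genes are protein-coding and lie on the plus strand of chromosome 19 (GRCm38) within 99316 bases, in the order Ifit2 (34550694 to 34576419), Ifit3 (34583531 to 34588731), Ifit3b (34607970 to 34613401) and Ifit1 (34640871 to 34650009). Among them, on the minus strand, lie the relatives Ifit1bl1 and Ifit1bl2. The letters GAAANNGAAA, the core of an interferon-stimulated response element, and their reverse complement TTTCNNTTTC were searched in the 250 bases before each RefSeq start site (GRCm38.p6). They occurred in 936 of 27025 genes (3.46%), and 57 genes (0.211%) held 2 or more. Ifit1, Ifit3 and Ifit3b each held 2, and Ifit2 held none at either of its listed start sites. The stretches that carry the matches are shown because the 3 genes share this arrangement, with the matches in capitals, on the plus strand from 30 bases before the first match:
Ifit1 (chr19:34640755-34640854): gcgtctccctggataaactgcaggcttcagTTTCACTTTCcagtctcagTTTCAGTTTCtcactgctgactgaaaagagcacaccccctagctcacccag
Ifit3 (chr19:34583343-34583442): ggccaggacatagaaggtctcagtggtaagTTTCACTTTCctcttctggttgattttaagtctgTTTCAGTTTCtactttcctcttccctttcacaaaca
Ifit3b (chr19:34607739-34607838): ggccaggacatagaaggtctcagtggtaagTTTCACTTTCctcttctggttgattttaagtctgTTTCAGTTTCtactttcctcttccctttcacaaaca
The matches begin 19 bases apart in Ifit1 and 34 bases apart in Ifit3 and Ifit3b, and the Ifit3 and Ifit3b stretches differ at 0 of 100 bases. A match is a description of the letters, not a shown binding site, and the absence of one before Ifit2 says nothing about sites elsewhere.

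Ifit3 and Ifit3b are also alike in their transcripts. Their longest annotated transcripts were 98.0% identical over 1697 aligned bases, with a longest shared stretch of 329 bases, whereas the other 5 pairs were 62.7% to 67.6% identical and shared at most 20 bases in a row. In the last 500 bases, where the 3' kit reads, Ifit3 and Ifit3b were 94.9% identical and 6.57% of 90-base windows of Ifit3 were found whole in Ifit3b. How reads were split between Ifit3 and Ifit3b is therefore uncertain, and the level of either is given with that limit.

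**Figure D1:**
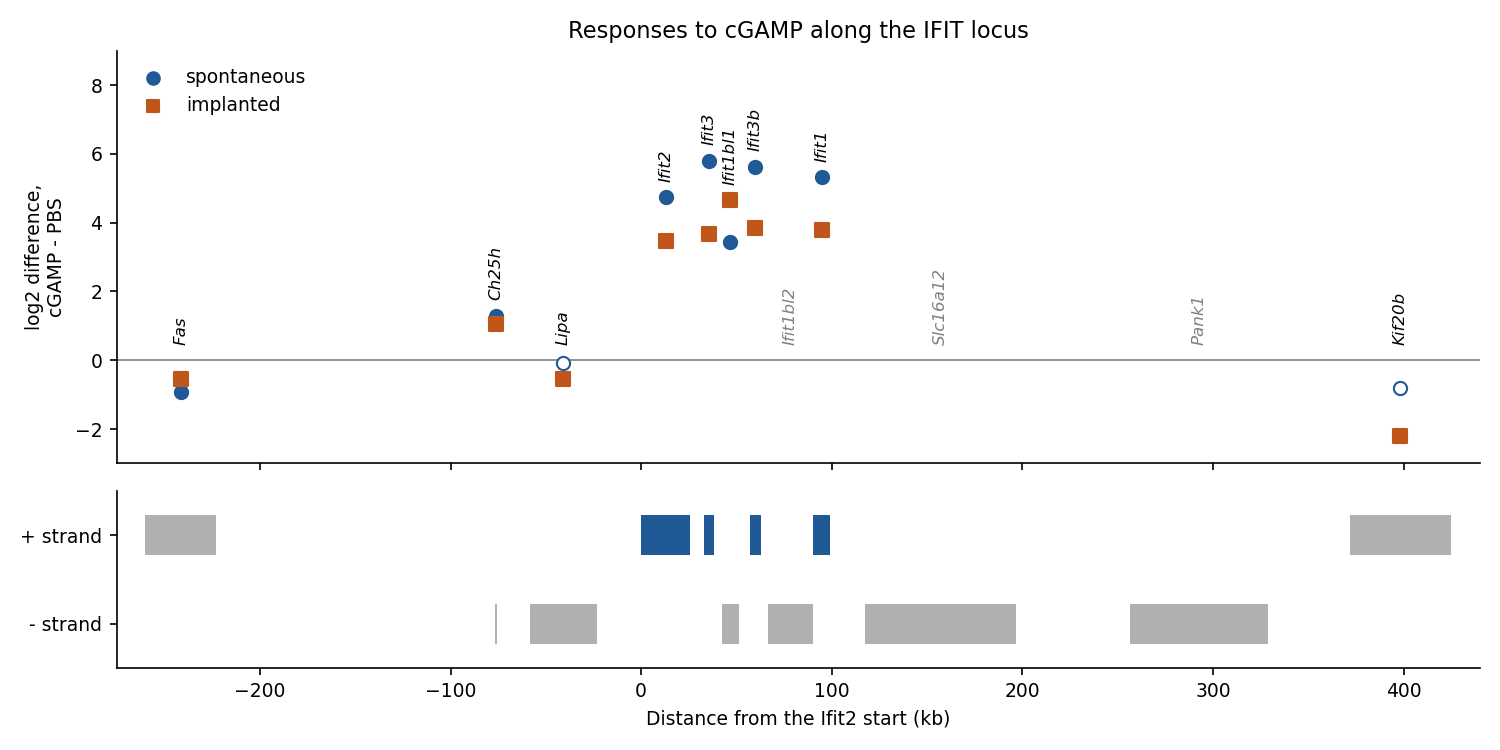
Genes of the IFIT locus on GRCm38 chromosome 19, drawn to scale by distance from the start of Ifit2 (x axis, kilobases), with the log2 cGAMP response of each tested gene in the upper panel (filled where called, grey names not tested) and the gene bodies by strand in the lower panel. The 4 members and the minus-strand relative Ifit1bl1 lie above the zero line in both models, as does Ch25h on the flank, and Fas, Lipa and Kif20b lie below it.

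Depth bears on these values as follows. Pecam1-positive cells held between 7451522 and 16338968 UMIs per library. Implanted cGAMP replicate 1 stood apart, with a median of 3049 UMIs per cell against 9523 to 14707.5 in the others and 37.9% of its cells below 2000 UMIs against 3.28% to 10.6%. Cells with at least 2 markers of immune, mural, epithelial or fibroblast types were 24.2% to 61.6% of a library, with both spontaneous cGAMP libraries highest at 61.6% and 53.0%. The mural sum ran from 72.7 to 672 CPM, the epithelial sum from 81.6 to 688, the immune sum from 6.96 to 199 and the fibroblast sum from 7.73 to 37.1, against 4052 to 5071 for the endothelial markers, and no defining marker was at 0. Results without these cells and without the shallow library are given where they matter. Only 7 of 8197 barcodes occurred in more than 1 library.

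Intratumoural cGAMP raised all 4 IFIT genes in ECs of spontaneous tumours. The level of a gene is its CPM (its share of a cell's UMIs, scaled to parts per 1000000) averaged over the Pecam1-positive cells of a library. Ifit1 stood at 7.62 and 12.1 CPM in the PBS libraries and at 406 and 439 in the cGAMP libraries. Ifit2 was at 7.05 and 18.4 after PBS and at 329 and 334 after cGAMP. Both cGAMP libraries lay far above both PBS libraries for either gene, and the PBS pair differed more from each other, in proportion, than the cGAMP pair. Ifit3 was at 5.44 and 5.54 CPM after PBS and at 347 and 379 after cGAMP. Ifit3b was at 2.43 and 4.78 after PBS and at 207 and 232 after cGAMP. In limma, fitted to log2(CPM + 1) of all 10424 genes that passed the filter, the rise was 5.32 ± 0.19 on the log2 scale for Ifit1 (SE, n = 2 libraries per group; adjusted p = 3.7e-07), 4.73 ± 0.37 for Ifit2 (adjusted p = 3.0e-05), 5.81 ± 0.19 for Ifit3 (adjusted p = 2.4e-07) and 5.63 ± 0.23 for Ifit3b (adjusted p = 5.8e-07). These are 39.8-, 26.6-, 56.0- and 49.4-fold on that scale. Against the 4 of 4 members that rose, 12.7% of all genes were called in either direction and 5.09% were called higher. The median over the members was 5.47 against -0.10 over all genes tested.

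In implanted tumours cGAMP raised all 4 genes as well, from a higher start. Ifit1 was at 40.6 and 29.6 CPM after PBS and at 517 and 465 after cGAMP. Ifit2 was at 65.2 and 33.3 after PBS and at 517 and 544 after cGAMP. In each case the first PBS replicate was the higher of its pair and no PBS value came near a cGAMP value. Ifit3 was at 44.3 and 26.1 CPM after PBS and at 420 and 478 after cGAMP. Ifit3b was at 20.9 and 15.1 after PBS and at 247 and 297 after cGAMP. The log2 rise was 3.78 ± 0.19 for Ifit1 (adjusted p = 5.1e-06), 3.48 ± 0.37 for Ifit2 (adjusted p = 0.000226), 3.68 ± 0.19 for Ifit3 (adjusted p = 6.4e-06) and 3.86 ± 0.23 for Ifit3b (adjusted p = 9.8e-06), or 13.8-, 11.2-, 12.8- and 14.5-fold. All 4 of 4 members rose, where 25.0% of all genes were called and 8.60% were called higher, and their median was 3.73 against -0.10 over all genes. Without the shallow implanted cGAMP replicate 1 the rises were 3.71, 3.52, 3.77 and 3.99 for Ifit1, Ifit2, Ifit3 and Ifit3b. Without cells carrying markers of other types they were 3.68, 3.43, 3.66 and 3.76, and in spontaneous tumours 5.52, 4.81, 5.79 and 5.37, all called.

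**Figure D2:**
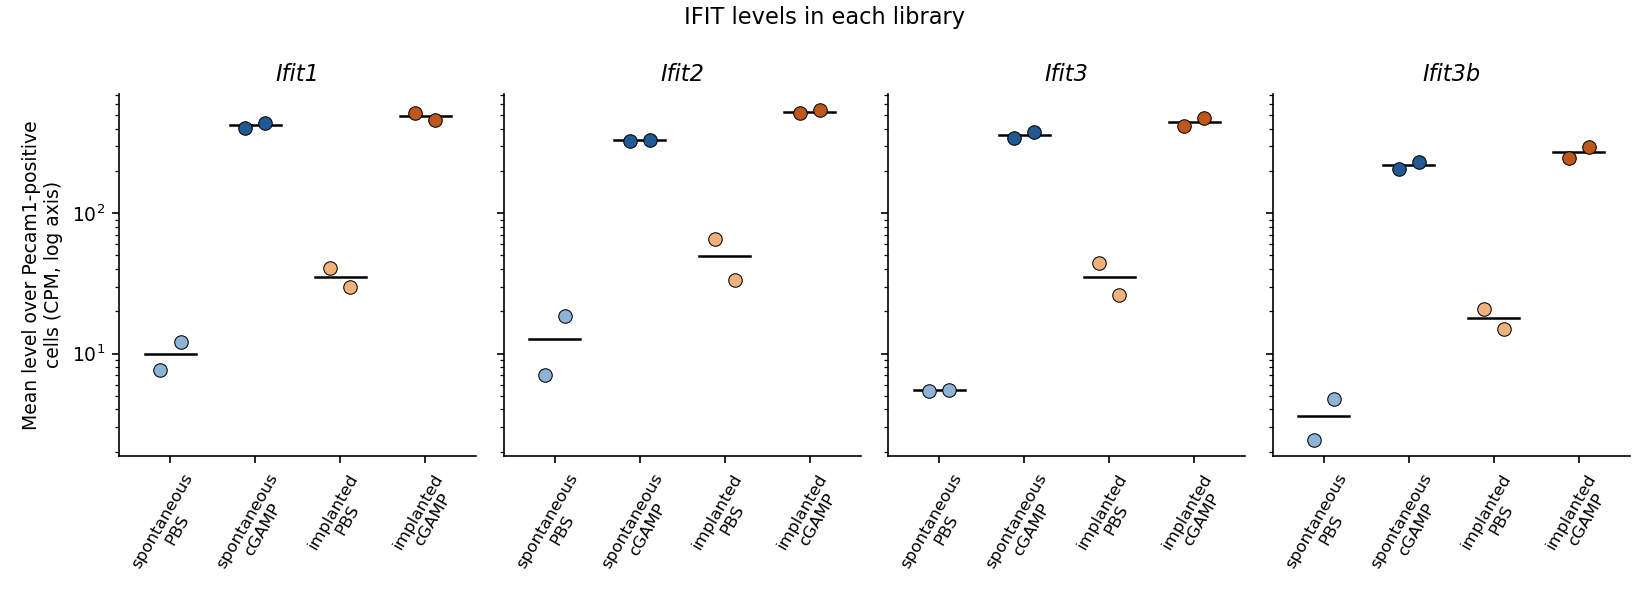
Mean CPM over Pecam1-positive cells on a log axis (y axis) for each IFIT gene, with 1 point per library and a bar at the mean of each of the 4 groups. For Ifit1 the means are 9.86 CPM after PBS and 423 after cGAMP in spontaneous tumours, and 35.1 and 491 in implanted tumours. For all 4 genes both PBS groups lie below both cGAMP groups, and in each of these pairs the implanted mean is the higher one.

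After PBS alone, ECs of implanted tumours held more IFIT transcript than ECs of spontaneous tumours. The group means for Ifit3 were 5.49 ± 0.0660 CPM (SD, n = 2) in spontaneous and 35.2 ± 12.8 in implanted tumours. For Ifit1 they were 9.86 ± 3.18 and 35.1 ± 7.79, for Ifit2 12.7 ± 8.03 and 49.3 ± 22.6, and for Ifit3b 3.60 ± 1.66 and 18.0 ± 4.14. Every implanted PBS library lay above every spontaneous PBS library for all 4 genes. The share of all genes that separate in this way is not given here, so this is a description only. The log2 difference was 1.75 for Ifit1 (limma adjusted p = 0.000942), 1.93 for Ifit2 (adjusted p = 0.0155), 2.43 for Ifit3 (adjusted p = 0.000193) and 2.08 for Ifit3b (adjusted p = 0.000946). All 4 members were called higher, where 7.83% of all genes were called and 3.39% were called higher, and their median was 2.003 against -0.06. Without cells carrying markers of other types the differences were 2.13, 2.04, 2.49 and 1.96 in the same order, all called. The call for Ifit2 was lost without spontaneous PBS replicate 1 (1.30, adjusted p = 0.0518) and without implanted PBS replicate 1 (1.45, adjusted p = 0.110).

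After cGAMP the models did not differ past the threshold for any member. The differences, implanted minus spontaneous, were 0.21 on the log2 scale for Ifit1 (95% interval -0.22 to 0.65, limma adjusted p = 0.497), 0.67 for Ifit2 (-0.16 to 1.51, adjusted p = 0.259), 0.30 for Ifit3 (-0.13 to 0.74, adjusted p = 0.329) and 0.31 for Ifit3b (-0.21 to 0.83, adjusted p = 0.412). Implanted means were nominally higher in all 4, at 491 ± 36.3 against 423 ± 23.1 CPM for Ifit1 and at 531 ± 19.7 against 332 ± 3.51 for Ifit2. Ifit3 had 449 ± 40.6 against 363 ± 23.1 and Ifit3b 272 ± 35.3 against 219 ± 17.5. The 2 libraries of a model did not overlap those of the other for any member, but the intervals include 0. With 2 libraries per group many genes can separate in this way, and their share of all genes is not given here. With limma, 0 of 4 members were called and 0 had an unadjusted p under 0.05, where 13.8% of all genes were called and 3155 genes were under 0.05 unadjusted. Ifit2 was called when only these 2 groups entered the fit (adjusted p = 0.00451), so for this gene the call depends on how the spread is pooled.

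The response to cGAMP, as a ratio, was smaller in implanted than in spontaneous tumours for Ifit1 and Ifit3. The difference of the log2 responses was -1.53 ± 0.27 for Ifit1 (limma adjusted p = 0.0462) and -2.13 ± 0.28 for Ifit3 (adjusted p = 0.0210). For Ifit3b it was -1.77 ± 0.33 (95% interval -2.50 to -1.04, adjusted p = 0.0527) and for Ifit2 -1.26 ± 0.53 (-2.44 to -0.07, adjusted p = 0.348), which do not pass. The 2 of 4 members called stand beside 0.662% of all genes called and 0.460% called lower, and the members' median was -1.65 against -0.02. On the linear scale the order was the other way round. cGAMP added 413 CPM of Ifit1 in spontaneous and 456 CPM in implanted tumours, 319 and 481 of Ifit2, 357 and 414 of Ifit3, and 216 and 254 of Ifit3b. The ratio and the gain in CPM rank the models differently, and the PBS level was the higher one in implanted tumours.

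The call for Ifit1 was lost without implanted cGAMP replicate 1 (-1.61, adjusted p = 0.0506) and without 5 other libraries, each in turn, and for Ifit3 the call was lost when any 1 of the 4 spontaneous libraries was left out (adjusted p = 0.0625 to 0.154). With a pseudocount of 10 CPM, which weighs low PBS levels less, the differences were -0.97 for Ifit1 (adjusted p = 0.0781) and -1.22 for Ifit3 (adjusted p = 0.0632). Without cells carrying markers of other types they were -1.84 (adjusted p = 0.00995) and -2.13 (adjusted p = 0.00731). These 5 comparisons share libraries and are not independent of each other. Labels and methods do not say that each library was a separate mouse, so the p-values measure the spread between libraries.

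**Figure D3:**
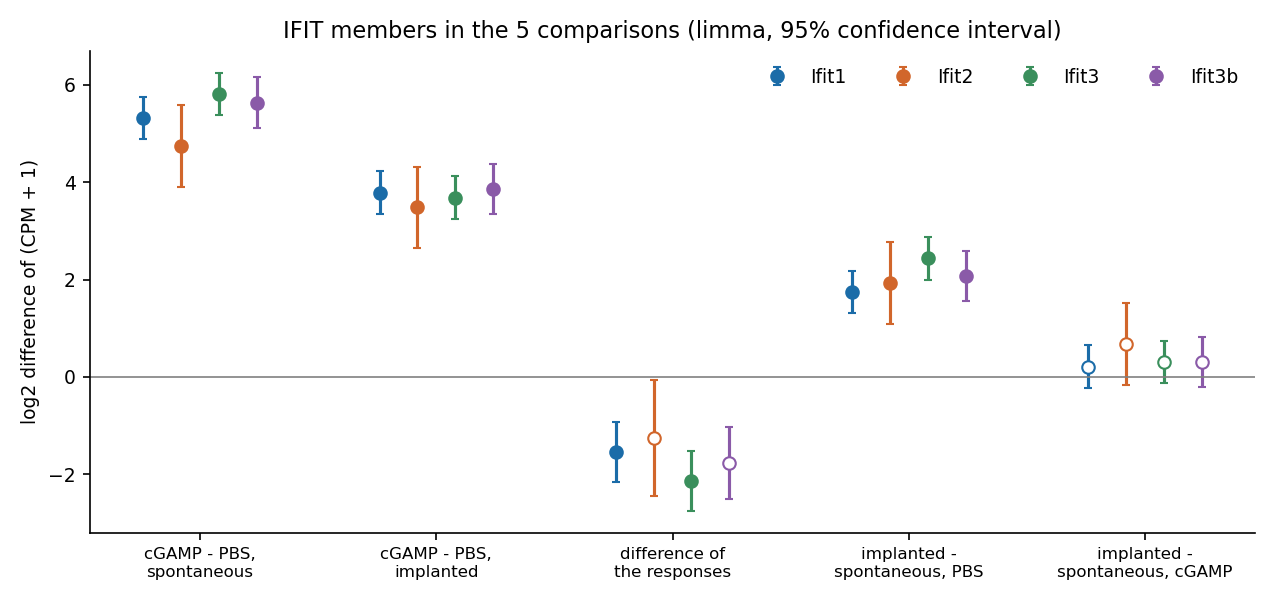
Log2 differences of CPM + 1 with 95% intervals (y axis) for each IFIT gene in 5 comparisons of groups, from limma, with filled points for adjusted p under 0.05. Both cGAMP responses and the comparison of models after PBS lie above 0 for all 4 genes, the differences of the responses lie below 0 with Ifit1 and Ifit3 called, and the intervals of the models after cGAMP include 0.

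The 4 members made up a like share of the UMIs in both libraries of a cGAMP group. Together they were 0.00199% and 0.00341% of all UMIs in the spontaneous PBS libraries, 0.0110% and 0.0171% in the implanted PBS libraries, 0.139% to 0.143% in the spontaneous cGAMP libraries and 0.178% to 0.190% in the implanted cGAMP libraries. The level of Ifit3b per Ifit3 was 0.588 to 0.622 in the 4 cGAMP libraries and 0.447 to 0.863 in the 4 PBS libraries, where both are low. Every ratio in this paragraph is taken to Ifit3, so each carries the uncertain split of reads between Ifit3 and Ifit3b. That of Ifit1 per Ifit3 was 0.975 to 1.23 after cGAMP. For Ifit2 per Ifit3 it was 0.950 and 0.882 in spontaneous and 1.23 and 1.14 in implanted cGAMP libraries, which do not overlap, and that difference between models was not tested. These compare UMI levels from the 3' end, where each transcript counts once whatever its length. The log2 ratio of Ifit2 to Ifit3 was lower after cGAMP than after PBS by a mean difference of -0.64, with an exact two-sided permutation p = 0.0286 over 4 against 4 libraries, the smallest this design allows (adjusted p = 0.0857 over 3 ratios). This fails the correction, the permutation takes no account of the model, and without spontaneous PBS replicate 2, where Ifit2 was 3.33 times Ifit3, the difference was -0.34. For Ifit1 to Ifit3 the difference was -0.19 (exact permutation p = 0.571), and for Ifit3b to Ifit3 the exact permutation p was 1.

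Cells were compared at an equal depth, each thinned to 2000 UMIs, because a shallow cell shows fewer genes. In spontaneous tumours 4.52% and 4.87% of cells in the PBS libraries held a UMI of any member, against 75.3% and 78.9% in the cGAMP libraries. In implanted tumours the shares were 19.6% and 11.9% after PBS and 82.0% and 82.8% after cGAMP. Unthinned, they were 10.2% and 13.3%, 93.7% and 94.2%, 44.9% and 33.6%, and 89.1% and 96.2% in the same order. A member UMI was found in most ECs after cGAMP and in a minority after PBS. Cells too shallow to thin were left out, 580 of them in implanted cGAMP replicate 1 and 22 to 102 in each other library. Intervals on such shares cover counting error only.

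A cell with a UMI of all 4 members at once was found in 0 of 863 and 0 of 554 cells of the spontaneous PBS libraries, which allows shares of up to 0.348% and 0.542% (3 counts over the cells; the Wilson upper limits are 0.443% and 0.689%), and in 0.549% and 0.584% of the implanted PBS libraries. After cGAMP these were 7.72% and 6.71% in spontaneous and 13.4% and 11.7% in implanted tumours. By member, Ifit1 was seen in 43.8% and 48.5% of spontaneous cGAMP cells and in 56.1% and 50.8% of implanted cGAMP cells. Ifit3b was seen least, in 28.9% and 29.95%, then in 35.7% and 40.2%. The variance of the member sum per cell was 1.52 and 1.95 times its mean in the spontaneous PBS libraries, 2.88 and 2.99 times in the implanted PBS libraries and 2.87 to 4.08 times in the cGAMP libraries. Between members, the correlation across cells after cGAMP was 0.144 to 0.395, a description of sparse counts in cells that share a library.

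No cell type in these tumours is known to lack IFIT genes, and RNA from other cells can add UMIs to any droplet. Among cells without a Pecam1 UMI, thinned the same way, 59.5% and 68.9% held a member UMI in spontaneous cGAMP libraries and 88.1% and 83.3% in implanted cGAMP libraries, over 18 to 67 cells each. After PBS these were 0 of 22 cells, which allows a share of up to 13.6%, and 13.2%, 31.8% and 8% in the other libraries. The share in Pecam1-negative cells was thus of the same order as in ECs, and what free RNA adds to either was not tested.

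**Figure D4:**
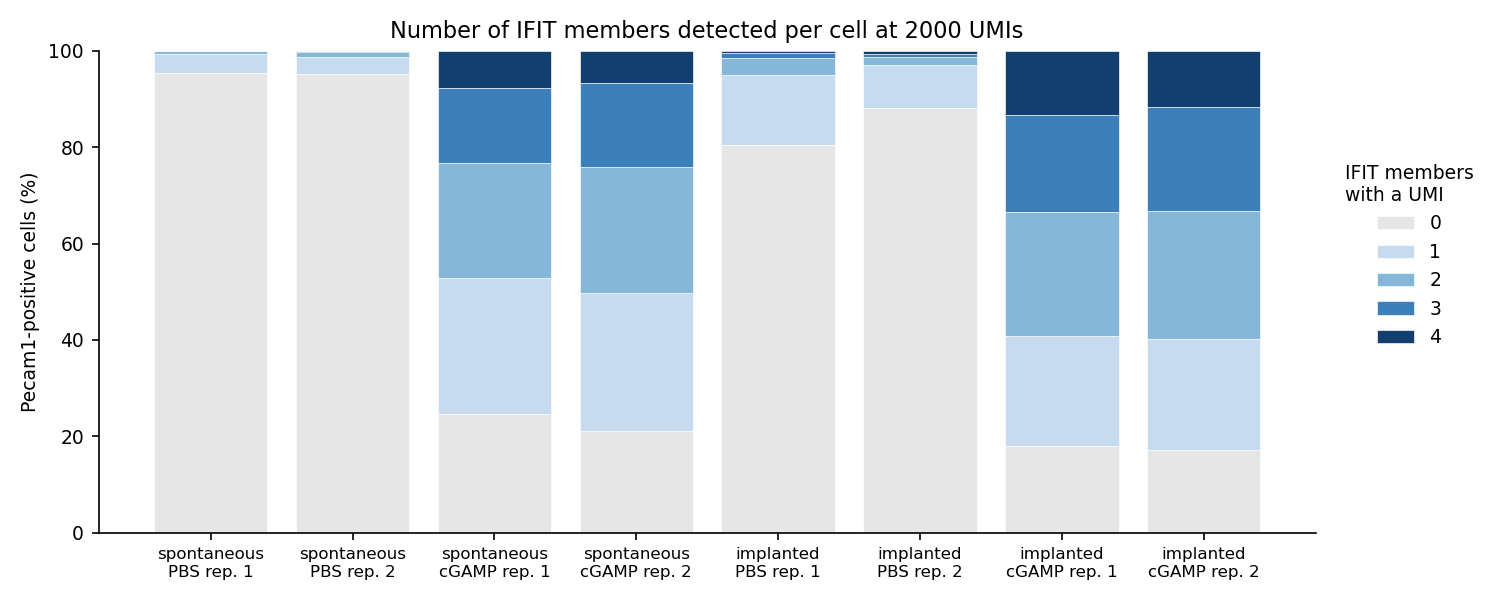
Share of Pecam1-positive cells (y axis, percent) with a UMI of 0, 1, 2, 3 or 4 IFIT genes after thinning each cell to 2000 UMIs, 1 bar per library. In the spontaneous PBS libraries 4.52% and 4.87% of cells hold any member, and in the cGAMP libraries 75.3% to 82.8% do.

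Vessel types were read as gates on marker genes: cells whose summed score for arterial, venous, tip, AQP7+ capillary, proliferative or lymphatic markers led the others. These gates are ranges of a score, not types; they took 4505 cells (62.9%), and 913 cells (12.8%) lay near a cut. The leading genes of each gate held 3 to 6 of its own markers and 0 of another's, for example Ackr1, Selp and Vwf in the venous-like gate and Pgf, Apln and Esm1 in the tip-like gate. This follows from choosing the cells on those markers and is no separate check of what the cells are. The leading genes of the AQP7+ capillary-like gate also held the haemoglobin genes Hba-a1 and Hbb-bs. Every gate held cells of all 8 libraries. Each gate was compared with the other ECs of the same library, on log2(CPM + 1).

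Venous-like ECs held less of all 4 IFIT transcripts than the other ECs after cGAMP. Venous cells are the usual site of leukocyte entry. In the order spontaneous cGAMP replicates 1 and 2, then implanted cGAMP replicates 1 and 2, Ifit2 was at 179, 237, 241 and 185 CPM in venous-like cells against 355, 353, 570 and 581 in the rest. Ifit3 was at 231, 307, 309 and 276 CPM in venous-like cells against 366, 393, 442 and 498 in the rest. The venous-like value was the lower one in 4 of 4 libraries, and the same held for Ifit1 and Ifit3b and in 4 of 4 PBS libraries. The share of all genes with such counts of libraries is not given here, nor for the gates below, so these counts are a description only. The log2 difference was -1.11 ± 0.24 for Ifit2 (limma adjusted p = 0.00339), -0.59 ± 0.12 for Ifit3 (adjusted p = 0.00138), -0.42 ± 0.12 for Ifit1 (adjusted p = 0.0187) and -0.45 ± 0.14 for Ifit3b (adjusted p = 0.0339). All 4 were called lower, where 22.0% of all genes were called between these cells and the rest and 14.7% were called lower. Their median was -0.52 against -0.07 over all genes. Leaving out spontaneous cGAMP replicate 1 ended the calls for Ifit2 (-1.01, adjusted p = 0.0590), Ifit1 (-0.30, adjusted p = 0.239) and Ifit3b (-0.33, adjusted p = 0.303). Leaving out implanted cGAMP replicate 2 ended those for Ifit1 (-0.27, adjusted p = 0.185) and Ifit3b (-0.31, adjusted p = 0.236), and without spontaneous cGAMP replicate 2 that for Ifit3b was lost (-0.57, adjusted p = 0.0588). Without cells carrying markers of other types the differences for Ifit3 (-0.71, adjusted p = 0.0804) and Ifit3b (-0.57, adjusted p = 0.0611) were not called.

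Venous-like cells were also the low ones before cGAMP. Their Ifit2 after PBS was at 1.16 and 0 CPM in spontaneous and at 14.1 and 6.50 CPM in implanted tumours, against 8.38, 21.7, 76.3 and 39.2 in the rest. As a log2 ratio their response exceeded that of the other ECs by 1.74 ± 0.34 for Ifit2 (limma adjusted p = 0.0112), 1.04 ± 0.17 for Ifit1 (adjusted p = 0.00348) and 0.63 ± 0.16 for Ifit3 (adjusted p = 0.0464). For Ifit3b it was 0.59 ± 0.20 (95% interval 0.16 to 1.02, adjusted p = 0.131). The 3 of 4 called compare with 3.73% of all genes called and 1.92% called higher. With a pseudocount of 10 CPM none was called, at 0.37 for Ifit2 (adjusted p = 0.283), 0.36 for Ifit1 (adjusted p = 0.189) and -0.01 for Ifit3 (adjusted p = 0.987), so the call depends on the pseudocount where PBS levels are a few CPM. The call for Ifit3 was also lost when any 1 of 6 libraries was left out, implanted cGAMP replicate 1 among them (0.55, adjusted p = 0.0886), and that for Ifit2 without spontaneous cGAMP replicate 1 (1.84, adjusted p = 0.0552) or 2 (1.64, adjusted p = 0.0735).

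In tip-like ECs, the leading cells of sprouts, Ifit2 was higher than in the rest in 3 of 4 cGAMP libraries, both implanted ones among them. It stood at 493, 327, 1013 and 935 CPM in tip-like cells of the 4 cGAMP libraries, in the order above, against 303, 335, 446 and 477 in the rest. The tip-like value was higher in 3 of 4 cGAMP libraries and in 4 of 4 PBS libraries, and the log2 difference was 0.70 ± 0.17 (limma adjusted p = 0.00659). Without spontaneous cGAMP replicate 1 it was 0.52 (adjusted p = 0.123). The other members were not called, at 0.40 for Ifit1 (95% interval -0.09 to 0.88, adjusted p = 0.251), 0.48 for Ifit3 (-0.50 to 1.47, adjusted p = 0.517) and 0.48 for Ifit3b (-0.04 to 0.99, adjusted p = 0.186). Ifit3 in tip-like cells varied most after PBS, at 29.6 CPM in spontaneous PBS replicate 1 against 0.930 in replicate 2, and without either of them Ifit3 was called (0.48 both times, adjusted p = 0.00262 and 0.00198), as was Ifit3b (0.48, adjusted p = 0.0178 and 0.0176). The 1 of 4 called compares with 20.6% of all genes called in tip-like cells and 7.38% called higher. A count of 1 does not set the members apart from genes in general. No member's response was called different in tip-like cells, where 1.27% of all genes were.

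Lymphatic-like ECs held less Ifit3b. It was at 87.1, 24.4, 127 and 69.5 CPM in the 4 cGAMP libraries against 213, 239, 260 and 320 in the rest, and lower in 4 of 4 PBS libraries too. The log2 difference was -1.93 ± 0.34 (limma adjusted p = 0.00137). Ifit1 was called as well at -0.44 ± 0.13 (adjusted p = 0.0327), but not when any 1 of 6 libraries was left out, implanted cGAMP replicate 1 among them (-0.54, adjusted p = 0.0612). Ifit3 was at -0.86 (adjusted p = 0.148) and Ifit2 at -0.16 (adjusted p = 0.719), and Ifit3 was called without spontaneous PBS replicate 1 (adjusted p = 0.0106) or 2 (adjusted p = 0.0125). The 2 of 4 members compare with 21.2% of all genes called in lymphatic-like cells and 11.6% called lower, and no member's response differed past the threshold, where 0.460% of genes did. The nearest was the response of Ifit1, lower by a log2 difference of -0.96 (95% interval -1.37 to -0.55, limma adjusted p = 0.0560). After PBS lymphatic-like Ifit1 was the lower one in 0 of 4 libraries, at 9.70 and 15.5 CPM in spontaneous and 61.6 and 48.7 in implanted tumours. The rest held 7.55, 11.9, 39.4 and 28.8. Lymphatic-like cells numbered 22 to 143 per library, and since Ifit3 and Ifit3b share most of their sequence, the split between them is uncertain here too.

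In arterial-like, AQP7+ capillary-like and proliferative-like ECs no member was called after cGAMP, where 28.5%, 13.3% and 4.16% of all genes were, nor in its response, where 1.29%, 0.413% and 0.278% were. The nearest was the response of Ifit1 in AQP7+ capillary-like cells, lower by a log2 difference of -0.91 (95% interval -1.34 to -0.48, limma adjusted p = 0.0603). Without implanted cGAMP replicate 1 this was called (-1.03, adjusted p = 0.0258), as were the Ifit2 response (-0.95, adjusted p = 0.0487) and the Ifit2 level after cGAMP (-0.69, adjusted p = 0.0171). The proliferative-like gate had 16 cells in implanted cGAMP replicate 2, under the minimum of 20, and that library was left out of its fit. At 2000 UMIs, 85.1%, 87.0%, 84.8% and 96.3% of tip-like cells held a member UMI in the 4 cGAMP libraries, against 64.6%, 78.5%, 80.5% and 74.1% of venous-like cells. Among lymphatic-like cells the shares were 75.9%, 68.2%, 73.6% and 69.1%, below the venous-like share in every cGAMP library except spontaneous cGAMP replicate 1. This share therefore does not set venous-like cells apart as the lowest gate.

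**Figure D5:**
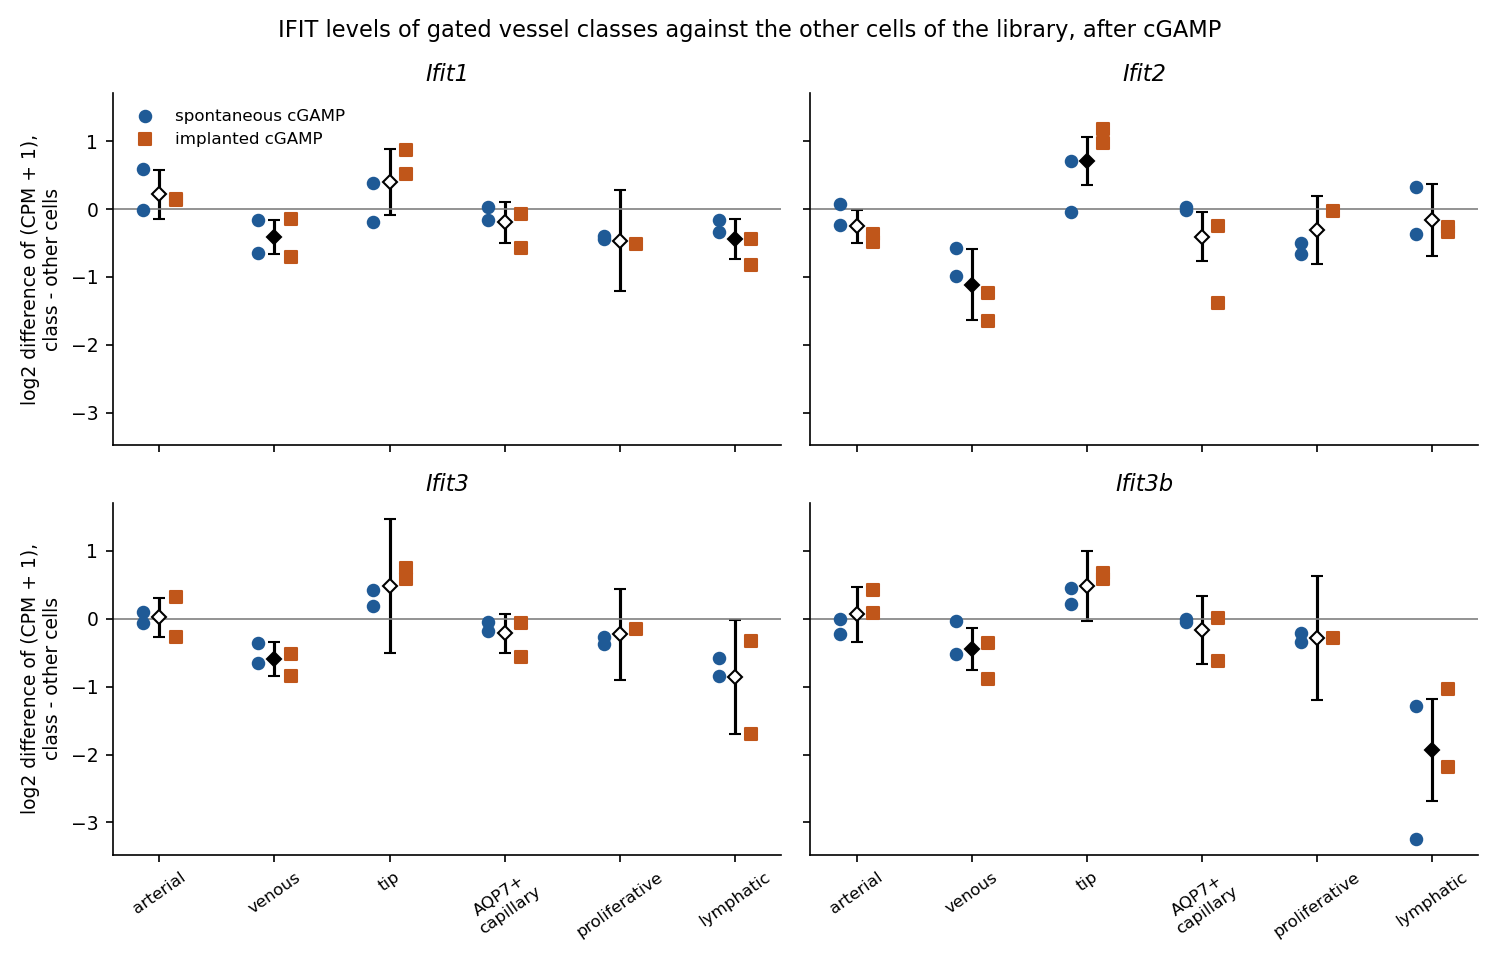
Log2 ratio of each IFIT gene in a vessel gate to the other ECs of the same library (y axis), 1 coloured point per cGAMP library, for 6 gates, and a diamond with its 95% interval from limma, filled where called. Venous-like points lie below 0 for all 4 genes, tip-like points for Ifit2 lie above 0 in 3 of 4 libraries, and lymphatic-like points for Ifit3b lie lowest.

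The genes around the IFIT cluster on chromosome 19 moved in both directions. Of 8 neighbours, 5 were tested. In spontaneous tumours 2 were called higher and 1 lower, and in implanted tumours 2 higher and 3 lower. Ifit1bl1, an IFIT relative between Ifit3 and Ifit3b, rose by 3.43 on the log2 scale (limma adjusted p = 0.000261) in spontaneous and by 4.66 (adjusted p = 4.0e-05) in implanted tumours. Ch25h, which makes the antiviral oxysterol 25-hydroxycholesterol, rose by 1.30 (adjusted p = 0.000563) and 1.04 (adjusted p = 0.00132). Fas, a death receptor, changed by -0.91 (adjusted p = 0.00771) and -0.55 (adjusted p = 0.0396), the second not called under median-of-ratios scaling (-0.45, adjusted p = 0.0781). Lipa, the lysosomal acid lipase, was at -0.09 (adjusted p = 0.643) and -0.53 (adjusted p = 0.00797), and Kif20b, a kinesin of cell division, at -0.80 (adjusted p = 0.147) and -2.21 (adjusted p = 0.00151).

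Upstream of the IFIT genes, Stat2 and Irf9, genes for transcription factors of the pathway, rose and those of the receptor and its kinases mostly did not. Of 7 genes reported from interferon to ISGF3, 6 were tested. Stat2 and Irf9 were the 2 called higher in each model, where 4 and 3 were not called and Ifnar1 was lower in implanted tumours. Ifnb1, which encodes interferon beta, was not tested and was listed only in the 2 implanted cGAMP matrices. Ifnar1, a receptor chain, was at -0.21 in spontaneous and -0.53 (limma adjusted p = 0.0169) in implanted tumours, the latter not called without implanted cGAMP replicate 1 (-0.44, adjusted p = 0.0662) or without cells carrying markers of other types (-0.50, adjusted p = 0.0753). Ifnar2, the other chain, was at 0.34 (adjusted p = 0.0768) and 0.31 (adjusted p = 0.0666), and was called under median-of-ratios scaling (0.44, adjusted p = 0.0435, and 0.41, adjusted p = 0.0320). The receptor kinase genes Jak1 (-0.05 and -0.02) and Tyk2 (-0.20 and -0.17) were called in neither model. Stat2 rose by 2.26 and 1.62 and Irf9 by 1.72 and 0.82, and the difference of the responses was called for Irf9 (-0.91, adjusted p = 0.0241).

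In the STING pathway 5 of 6 listed genes were tested. Tmem173, which encodes STING, was at 0.28 (limma adjusted p = 0.177) in spontaneous and 0.41 (adjusted p = 0.0414) in implanted tumours, and its kinase gene Tbk1 at 0.32 (adjusted p = 0.0511) and 0.67 (adjusted p = 0.000928). In spontaneous tumours Tbk1 was called under median-of-ratios scaling (0.42, adjusted p = 0.0222) and without cells carrying markers of other types (0.52, adjusted p = 0.0286). The Tmem173 call was lost without cells carrying markers of other types (0.38, adjusted p = 0.0895) and without implanted cGAMP replicate 1 (0.44, adjusted p = 0.0725). Mb21d1, which encodes the sensor cGAS, and Irf3 were called in neither. Irf7, an interferon-induced regulator, rose by 5.85 (adjusted p = 2.4e-07) and 4.12 (adjusted p = 3.1e-06), with a difference of the responses of -1.72 (adjusted p = 0.0290). Its level was 23.7 CPM in spontaneous and 81.0 in implanted tumours after PBS, and 1407 in both after cGAMP. Irf7 lies outside the rule for named genes and was named after its values were seen, as were Eif3a, Oas3, Oasl1, Cmpk2, Zbp1, Rtp4 and Xaf1 below.

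Genes that damp interferon signalling rose too. All 4 listed were called higher in spontaneous and 3 in implanted tumours, with Usp18, which blocks the receptor, at 3.96 and 3.45 and Socs1, an inhibitor of JAK kinases, at 2.03 and 1.44. Socs3 rose by 0.32 (limma adjusted p = 0.0335) in spontaneous tumours but was not called without cells carrying markers of other types (0.34, adjusted p = 0.0802). Of 6 genes for cap methylation and for eIF3, the initiation factor that IFIT proteins bind, 5 were tested and none was higher. Eif3a was at -0.45 (adjusted p = 0.00441) in spontaneous and -0.24 (adjusted p = 0.0401) in implanted tumours, the latter not called under median-of-ratios scaling (-0.14, adjusted p = 0.190). The cap methyltransferase gene Rnmt was at -0.49 (adjusted p = 0.0343) in spontaneous tumours and not called under that scaling (-0.39, adjusted p = 0.0868), and Cmtr1, which methylates the ribose that Ifit1 reads, was called in neither model.

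Of 18 other antiviral interferon-stimulated genes, 17 were tested and 17 were called higher in each model, with a median log2 response of 3.65 in spontaneous and 2.55 in implanted tumours. Rsad2, which encodes viperin, rose by 4.75 and 4.11 and Mx1, a dynamin-like GTPase, by 4.42 and 5.12. After PBS 14 of 17 were higher in implanted tumours, and after cGAMP 4 were, joined under median-of-ratios scaling by Isg15 (limma adjusted p = 0.0378), Rsad2 (adjusted p = 0.0442) and Oas3 (adjusted p = 0.0434). Without cells carrying markers of other types, Mx1 after PBS (0.88, adjusted p = 0.0692) and Oasl1 after cGAMP (0.70, adjusted p = 0.0623) were no longer called. Cmpk2 after cGAMP was then called (0.79, adjusted p = 0.0445). The difference of the responses was called lower for 3, namely Zbp1 (-2.68, limma adjusted p = 0.0210), Rtp4 (-1.28, adjusted p = 0.0230) and Xaf1 (-0.92, adjusted p = 0.0437), the last lost without implanted cGAMP replicate 1 (-0.83, adjusted p = 0.0587). The median difference over the list was -0.81, against -1.65 over the IFIT genes.

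Among 8370 genes whose mean over the 8 libraries reached 10 CPM, those whose log2 level across the 8 libraries was most like the mean of the IFIT genes were Oasl2 (Pearson r = 0.998), Isg15 (0.998), Slfn8 (0.997), Ifi44 (0.997) and Trim30a (0.996). The 8 points fall into the groups of the design, so these values describe likeness of pattern and carry no test. The responses of these 5 genes were 3.86, 4.32, 3.50, 3.82 and 2.34 on the log2 scale in spontaneous and 2.44, 3.20, 2.79, 2.74 and 1.85 in implanted tumours, each below the IFIT median of 5.47 and 3.73. Each IFIT gene had r from 0.991 to 0.999 with the mean of the other members.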

How the data were processed

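ECs from 8 libraries were profiled with the 10x Chromium 3' kit (version 3). The authors aligned reads to mm10 with Cell Ranger 3.0.0, removed cells with under 500 genes or over 10% mitochondrial UMIs and genes seen in under 3 cells, and deposited, with Seurat 3.1.1, the natural log of 1 plus UMIs per 10000 of each cell. How doublets were treated is not given in the sources used here, and none were removed here. UMIs were recovered by dividing each cell's values by its smallest (100% whole within 0.01), and cells with a Pecam1 UMI were averaged as CPM per library. Depth per library is given in the report and limits the precision of low PBS levels.

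Groups followed the labels. log2(CPM + 1) of genes reaching 5 CPM in 2 or more libraries was fitted with limma 3.58.1 (trend, 4 group means, R 4.3.3), with Benjamini-Hochberg adjusted p under 0.05 taken as called and intervals at 95%. Vessel gates were cells with a mean z-score of at least 0.5 for a marker list and a lead of at least 0.25, compared with the other cells of the library where both held at least 20 cells. Shares were taken at 2000 UMIs per cell with Wilson intervals (scipy 1.17.1). The limma fits of groups and of vessel gates were tested on simulated library levels. The recovery of UMIs, the gating, the thinning, the permutation test and the sequence searches were not. Named genes were the members, all tested genes of 2 lists (locus neighbours, interferon to ISGF3), up to 4 of each other list in the order written, and the 5 most alike. Members and lists were chosen with earlier results of these data known. Alternatives changed the pseudocount, filter, scaling, cells kept, pooling, blocking and libraries left out. Same-numbered libraries did not deviate together (r of -0.216 to 0.125), so replicate numbers were not used as pairs. Gene positions came from GENCODE and promoters from RefSeq, both on GRCm38, and all 4 members were matched by symbol. Protein sequences were not used here, and 1 gene of the interferon list is not reported here.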

Additional observations from a re-analysis of the deposited data

Results flagged for a closer look

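The cGAMP response as a ratio differed between models, by the test of the difference itself in limma, for Ifit1 (-1.53 on the log2 scale, implanted minus spontaneous, adjusted p = 0.0462) and Ifit3 (-2.13, adjusted p = 0.0210), with 2 libraries per group. With a pseudocount of 10 CPM neither was called (limma adjusted p = 0.0781 and 0.0632). The gain in CPM was the larger one in implanted tumours, at 456 against 413 for Ifit1 and 414 against 357 for Ifit3.

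Cells without a Pecam1 UMI, which no comparison of the report's levels used, also carried IFIT transcripts after cGAMP. Their mean over the 4 cGAMP libraries was 379 CPM for Ifit1, 378 for Ifit2, 415 for Ifit3 and 209 for Ifit3b, and every cGAMP library lay above every PBS library, where the highest value was 65.3 CPM, for Ifit2 in implanted PBS replicate 1. The share of all genes that separate in this way is not given here. Between 50 and 496 such cells were present per library. Whether these are ECs whose Pecam1 was missed, other cells or free RNA was not tested.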

How the results depend on the processing

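Each member's rise after cGAMP was called under all 20 alternatives, with log2 responses of 3.96 to 6.00 in spontaneous and 3.004 to 4.08 in implanted tumours. The higher PBS level in implanted tumours was called under all 20 for Ifit1, Ifit3 and Ifit3b, and for Ifit2 under 17, the call being lost with no filter (adjusted p = 0.0850) and without 2 libraries. The difference of the responses kept its sign under all 19 alternatives for each member, but its call was lost in 10 for Ifit1 and in 6 for Ifit3, gained in 6 for Ifit3b and reached in none for Ifit2. Members called for this difference, 2 as reported, were 0 with a pseudocount of 10 CPM, 0 with no filter on low values, 1 with all deposited cells, 3 with UMIs summed per library, 3 in cells of at least 2000 UMIs, and 0 to 3 with 1 library left out. For the models after cGAMP, 1 member was called with the compared groups only.

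Genes called in all, 1322 for the spontaneous response, were 812 with no filter, 2839 with UMIs summed per library, 808 without cells carrying markers of other types, and 448 to 1808 with a library left out. For the implanted response (2609) they were 1265 to 2495 with a library left out. For the difference (69) they were 0 with no filter, 112 with summed UMIs, 43 with all deposited cells and 2 to 171 with a library left out. For the models after PBS (816) they were 327, 1317 and 494 with no filter, summed UMIs and those cells removed, and 212 to 1234, and after cGAMP (1434) they were 784 with no filter, 915 with those cells removed and 156 to 1447. Median-of-ratios scaling moved the median of all genes from -0.10 to -0.0038 (spontaneous) and -0.0072 (implanted), and the share of calls that were higher from 40.2% to 66.4% and from 34.3% to 51.5%, from 43.3% to 67.9% between models after PBS and from 38.0% to 58.6% after cGAMP. It changed no member's call.

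In the vessel gates, members called in venous-like cells (4) were 2 without cells carrying markers of other types and 1 to 4 with a library left out, and for their response (3) 0 with a pseudocount of 10 CPM, where Ifit3 turned to -0.0058, and 1 to 3. Tip-like calls (1) were 2 with that pseudocount and 0 to 3, and for the response (0) 1 without those cells and 0 to 2. The tip-like Ifit3 response was 0.98 without spontaneous PBS replicate 1 and -1.45 without replicate 2. AQP7+ capillary-like calls were 0 to 1, and for the response 1 in cells of at least 2000 UMIs and 0 to 2. Proliferative-like response calls were 0 to 1. Lymphatic-like calls (2) were 1 in cells of at least 2000 UMIs and 1 to 3, and for the response (0) 1 with a wider gate margin. The cause of these changes was not tested.

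With the replicate number as a block, members called were 1 for the difference of the responses, 3 for the tip-like level, 1 for the tip-like response and 1 for the lymphatic-like level, and no other count of members changed. Since one pair of groups deviated in opposite ways (r of -0.216), a crossed pairing as block was added after seeing the data, and it called 3 members and 82 genes for the difference. No value could be had for proliferative-like cells with a wider gate margin, nor for proliferative-like and lymphatic-like cells without cells carrying markers of other types. Of the alternatives, the pseudocount of 10 CPM moved the spontaneous responses of Ifit1 to 4.45, Ifit2 to 3.96, Ifit3 to 4.59 and Ifit3b to 4.08, and cells of at least 2000 UMIs gave 5.40, 4.65, 5.78 and 5.79.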
